A study of Zea mays with 18 samples.

Results

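Ears at silking (stage R1) of 2 ATHB17Δ113 events were compared at the RNA level. An event is a plant line that descends from 1 insertion of a transgene, so that event 1 and event 2 carry the same construct at different places of the maize genome. The members described here are the identifiers with a mean normalized count of at least 10 over the 6 ear samples of both events, which held 38420 of the 76612 identifiers in the deposited table. Identifiers name genes, not splice forms, and are called transcripts below. Of the members, 37256 reached a mean of 10 in both events, 457 in event 1 alone and 707 in event 2 alone. The members nearest to the limit were GRMZM2G354338, GRMZM2G170857 and GRMZM2G404702 with means of 10.0017, 10.005 and 10.005, and the nearest transcripts outside it, GRMZM2G134586, GRMZM2G023847 and GRMZM2G407256, had means of 9.995, 9.9983 and 9.9983.

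The samples came from hybrid NN6306 grown in the field in 2012. Each event and the control without the transgene had 3 biological replicates of the ear (R1) and 3 of the younger ear inflorescence (V16), 18 samples in all. In both events the full-length coding sequence of ATHB17, an Arabidopsis transcription factor, was driven by the promoter, leader and intron of rice actin, and the transgene also carried the CP4 EPSPS gene for glyphosate tolerance under a rice actin promoter. Both were selected as single-copy insertions made with Agrobacterium, so each genotype group stands for 1 insertion, and the insertion site and anything else that differs between the lines cannot be told apart. In maize the ATHB17 transcript is spliced so that the protein lacks its first 113 residues. The labels do not say from how many plants a replicate was made, and p-values measure the spread between these samples.

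HD-Zip II proteins such as ATHB17, which join a homeodomain to a leucine zipper, bind DNA as dimers and repress transcription. A truncated member that keeps the homeodomain and the zipper but has lost most of the repression domain can occupy such sites or pair with the endogenous proteins without repressing. At silking the maize ear holds ovules with elongating styles, the silks, on a cob axis wrapped in husk leaves, and growth at this stage depends on sugar supply and on cell wall synthesis. A comparison of events asks which transcripts differ between independent insertions of 1 construct, a question that neither event against control answers alone.

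The counts of each of the 6 ear libraries summed to between 32926379 and 52281769, and members took between 99.8% and 99.9% of them. A read that mapped to several transcripts is counted on each, so these sums exceed the reads sequenced. The 10 largest transcripts took between 7.27% and 8.02% of the counts of a library. Event 2 ear replicate 2 stood apart: the SD of the log2 differences over members was between 0.566 and 0.742 in its 5 pairs with the other libraries and between 0.424 and 0.516 in the pairs without it. Along the first principal component of the 6 libraries, which carried 46.8% of the variance, event 2 ear replicate 2 lay at -97.4, replicate 3 at -16.0 and replicate 1 at 38.8, while the event 1 replicates lay between 14.5 and 32.5. Replicates of an event differed beyond counting error, with chi-square values per degree of freedom between 8.45 and 27.5. Ear markers were present in both events, and the summed normalized count of 13 floral organ and pistil transcripts was between 50511.5 and 53801.5 in event 1 ear and between 42424 and 53805.5 in event 2 ear.

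Calls were made where the raw p of limma, fitted to all 18 samples and all 76612 transcripts, did not exceed 0.0001. Differences are event 1 minus event 2 in log2(normalized count + 1), a scale that understates the change of low transcripts. Of the 38420 members, 17 were called, 3 of them higher in event 1 and 14 higher in event 2. This is 0.0442% of the members tested, with 0.00781% higher in event 1 and 0.0364% higher in event 2, and 11 of the members (0.0286%) had a Benjamini-Hochberg adjusted p under 0.05. Over all 76612 transcripts 42 were called (0.0548%). The 38192 transcripts under the limit held 25 of these calls (0.0655%), of which 12 (0.0314%) were higher in event 1. Without event 2 ear replicate 1 the count among members was 37 (0.0963%), 21 of them higher in event 1, and without replicate 2 or without replicate 3 it was 12 (0.0312%). Leaving out event 2 ear replicate 3 brought the count higher in event 2 from 14 to 9. The median difference over the members was 0.04, with quartiles of -0.14 and 0.21, and 516 members (1.34%) differed by at least 1 on the log2 scale. A raw p under 0.05 was found for 1869 members (4.86%), 1179 of them (3.07%) higher in event 1 and 690 (1.8%) lower. In 5279 members (13.7%) the 3 samples of event 1 and the 3 of event 2 did not overlap, with event 1 higher in 3709 (9.65%) and lower in 1570 (4.09%). For a single transcript, 3 samples against 3 cannot go under p = 0.1 in a two-sided exact permutation test.

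**Figure D1:**
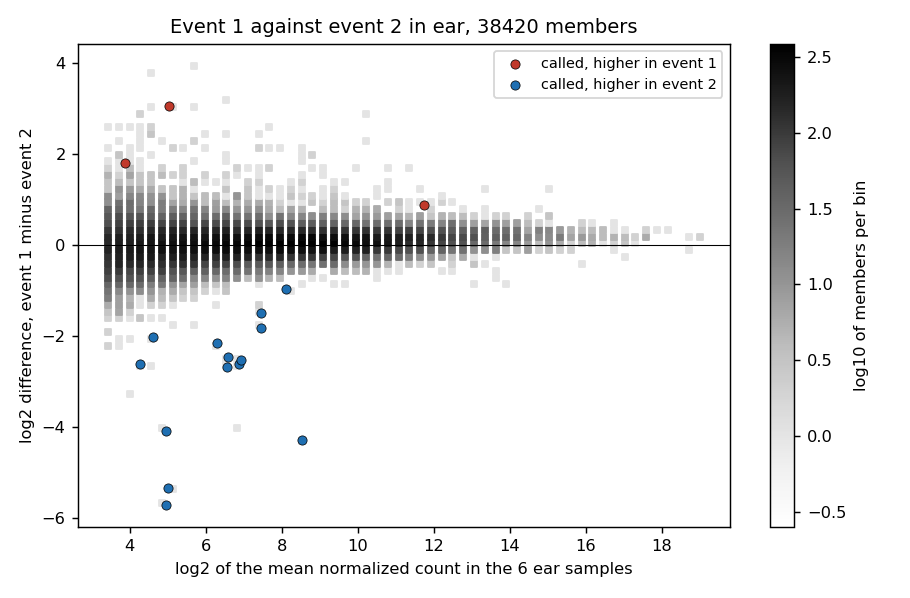
The log2 difference in ear, event 1 minus event 2, of the 38420 members against the log2 of their mean normalized count over the 6 ear samples. Grey squares are bins shaded by the log10 of the members they hold, and circles are the 17 called members, 3 above 0 and 14 below, with GRMZM2G023764 at -5.72 the lowest and GRMZM2G122172 at 3.05 the highest.

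Of the 14 called members higher in event 2, 13 are described as a set, chosen because all their event 2 ear samples lay above all control ear samples. In 11 of the 13 the ranges of event 1 and control in ear overlapped. Only GRMZM2G028921 of the 13 matched exactly 1 RefSeq gene, LOC100381791 on chromosome 9, and the others are named here by identifier with no role.

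GRMZM2G387589 had normalized counts of 39.2, 31.5 and 25.3 in event 1 ear and of 343, 1120.5 and 673 in event 2 ear. In control ear it had 43.3, 30.4 and 32.7. Event 2 was therefore the only high group in ear, and event 1 and control overlapped. The difference was -4.29 ± 0.34 (SE; adjusted p = 6.8e-06), the smallest p of the comparison.

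GRMZM2G023764 had no read in any of the event 1 and control libraries of either tissue. In event 2 ear it had normalized counts of 25, 114 and 48.0, or 183 reads in all. Against a floor of 3 reads in each event 1 ear library, event 2 ear was at least 16.2-fold higher (adjusted p = 6.8e-06). In event 2 ear inflorescence it had 140.5, 100.6 and 169, or 526 reads, at least 47.9-fold higher than event 1. The floor covers counting error only.

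GRMZM2G126684 had 1 read in all in event 1 ear and 188 in event 2 ear. Its normalized counts were 1.19, 0 and 0 in event 1, 22.6, 114 and 53.6 in event 2, and 0, 0 and 1.06 in control ear. The ratio of event 2 to event 1 was 148, with an exact 95% counting interval from 26.2 to 5869 (adjusted p of the difference = 0.00084). In inflorescence this transcript was also seen in event 1, at 5.54, 0.95 and 6.04, against 143, 109 and 182 in event 2.

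GRMZM2G320731 was also close to absent outside event 2, with 1.19, 3.78 and 1.41 in event 1 ear and 3.51, 5.28 and 3.17 in control ear. Event 2 ear had 28.6, 115 and 35.2, and the difference from event 1 was -4.09 ± 0.56 (SE; adjusted p = 0.0054).

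The next transcripts of the set had reads in all ear samples of all groups. GRMZM2G179666 had 28.5, 26.4 and 33.7 in event 1 ear and 120, 343 and 157 in event 2 ear. GRMZM2G151585 had 22.6, 21.4 and 23.9 against 76.1, 233 and 189.5. GRMZM2G078114 had 23.8, 25.2 and 29.5 against 99.9, 279.6 and 117. In all of these the lowest event 2 sample was over the highest event 1 sample, and the differences were -2.62 ± 0.33, -2.68 ± 0.35 and -2.47 ± 0.32 (SE).

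GRMZM2G005006 had 38.0, 39.0 and 22.5 in event 1 ear against 99.9, 304 and 231 in event 2 ear, a difference of -2.54 ± 0.37 (SE). GRMZM2G150786 had 28.5, 25.2 and 21.1 against 64.2, 235 and 99.2, a difference of -2.17 ± 0.36 (SE). In control ear these transcripts had 44.5, 34.3 and 33.8, and 25.8, 23.8 and 33.8, so that control overlapped event 1 and not event 2. Smaller differences were those of GRMZM2G028921, with 78.5, 98.2 and 45.0 against 153, 443 and 242 (-1.84 ± 0.32, SE; adjusted p = 0.052), and of GRMZM2G108912, with 95.1, 79.3 and 82.9 against 162, 432 and 207 (-1.50 ± 0.27, SE; adjusted p = 0.083). GRMZM2G078795 (-2.62 ± 0.50, SE) and GRMZM2G152972 (-2.03 ± 0.39, SE) had the largest p of the set and are named after their values were seen. When single libraries were left out, GRMZM2G150786, GRMZM2G028921, GRMZM2G108912, GRMZM2G078795 and GRMZM2G152972 lost their call in at least 4 of the 6 cases each.

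The same 13 were higher in event 2 in the inflorescence, which shares no sample with the ear comparison. In each of the 13 the 3 event 2 inflorescence samples lay above all event 1 and control inflorescence samples. The share of all members with this separation is not given here. Of the 17 members called in ear, 10 were also called in inflorescence, all in the set of 13 and in the same direction. These 10 are 58.8% of the 17 ear calls and 55.6% of the 18 members called in inflorescence (0.0469% of those tested). Without event 1 ear inflorescence replicate 3, 11 members were called there. The differences of GRMZM2G387589 were -4.29 in ear and -4.10 in inflorescence, and those of GRMZM2G179666 were -2.62 and -2.64. None of the 13 had a called difference between the tissues.

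The 13 shared the order of the event 2 libraries. In event 2 ear, replicate 2 had the highest and replicate 1 the lowest value of all 13, and in event 2 inflorescence replicate 3 had the highest and replicate 2 the lowest value of all 13. The order in ear was not particular to these transcripts: replicate 2 was also the highest and replicate 1 the lowest event 2 ear library for the 1525 members lower in control ear than in control inflorescence by more than 2 on the log2 scale, with median differences from control ear of 1.20, 0.21 and -0.38 in replicates 2, 3 and 1. The part of these libraries in the shared order was not tested. To compare the 13 with each other, the mean of event 1 and control in the same tissue was subtracted from each event 2 value. The remaining excess of GRMZM2G387589 was 309, 1087 and 639 in the ear libraries and 1604.5, 1311 and 1868 in the inflorescence libraries, a 6.05-fold range. Over the 13, the excess spanned between 5.19-fold and 7.97-fold over the 6 event 2 libraries. The excess as a percentage of that of GRMZM2G387589 spanned less, between 1.4-fold for GRMZM2G023764 and 2.43-fold for GRMZM2G150786 over the 6 event 2 libraries. For GRMZM2G023764 it was between 7.51% and 10.5%, and for GRMZM2G179666 between 19.9% and 29.3%. The scale factor of a library, between 0.7997 and 1.4054 in the 6 ear libraries, is common to all transcripts in it. A read that mapped to up to 10 transcripts was counted on each of them, and how many reads the 13 share was not tested. None of the 17 called members had the same reads in every library as another transcript.

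**Figure D2:**
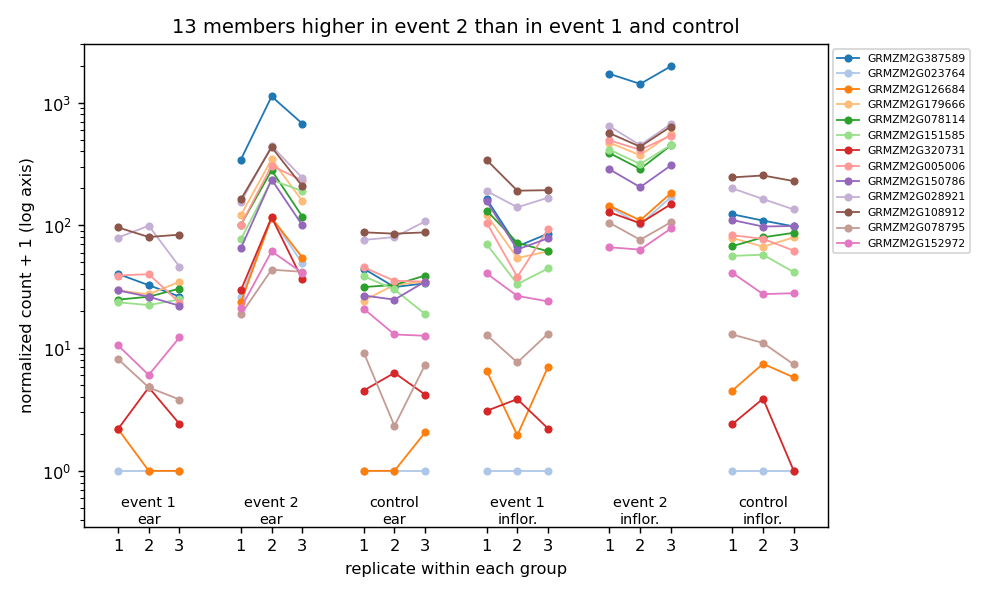
Normalized count plus 1, on a log axis, of the 13 transcripts in all 18 samples, by group and replicate. Lines join the 3 samples of a group only to follow a transcript. All 13 are higher in both event 2 groups than in event 1 and control of the same tissue, and in event 2 ear replicate 2 is the highest and replicate 1 the lowest for each of them.

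Of the 8 members called in inflorescence and not in ear, 6 also had no overlap between the events in ear, against 13.7% of all members. Of those 6, 5 were higher in event 2, against 1570 of the 5279 members without overlap in ear. They are named here after their values were seen. AC199186.2 had 20.2, 18.9 and 25.3 in event 1 ear and 65.4, 69.3 and 84.8 in event 2 ear (adjusted p = 0.33). GRMZM2G067250 had 13.1, 15.1 and 15.5 against 45.2, 41.4 and 65.6 (adjusted p = 0.2). GRMZM5G844940 had 11.9, 13.8 and 12.7 against 40.4, 31.3 and 50.4 (adjusted p = 0.21). With GRMZM2G312539 these transcripts did not follow the order of the 13: in event 2 inflorescence replicate 2 was the highest, at 93.7 for AC199186.2, 70.5 for GRMZM2G067250, 57.8 for GRMZM5G844940 and 48.6 for GRMZM2G312539, where it was the lowest for the 13. GRMZM2G108910 was higher in event 2 ear with 20.2, 47.0 and 39.2 against 10.7, 8.81 and 11.2. GRMZM2G113994 went the other way, with 80.8, 83.1 and 104 in event 1 ear against 38.1, 67.1 and 48.8 in event 2 ear (adjusted p = 0.75).

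The other 4 called members each had a pattern of their own. GRMZM5G890843 (RefSeq gene LOC100283090, chromosome 3) was lower in event 1, with 179.5, 188 and 188 in event 1 ear against 318, 386 and 390.2 in event 2 ear. Control ear had 355, 308 and 357 and overlapped event 2 but not event 1. The difference between events was -0.97 ± 0.13 (SE; adjusted p = 0.0054), and event 1 differed from control by -0.87 (adjusted p = 0.016). In inflorescence the events did not overlap either, with 201, 182 and 175 in event 1 and 229.7, 258 and 251 in event 2 (-0.40, adjusted p = 0.83).

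GRMZM2G089501 (LOC100191909, chromosome 7) was the most abundant called transcript and was low in event 2. It had 4488, 4405 and 4466 in event 1 ear, 2393, 2495 and 2410.2 in event 2 ear, and 5167, 5509 and 6392 in control ear. The replicates within an event lay close together, with means of 4453 ± 43.0 and 2433 ± 54.4 (SD, n = 3). The events differed by 0.87 ± 0.15 (SE; adjusted p = 0.062), and event 2 differed from control by -1.22 (adjusted p = 0.0027). The inflorescence values were 4367, 6242 and 5008 in event 1 against 3141, 3489 and 2998 in event 2 (0.68, adjusted p = 0.27). This call was kept under each of the 16 alternatives that were run.

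GRMZM2G122172 was the only member called at the raw threshold for a difference between the tissues in its event contrast (0.0026% of members). In ear it had 47.5, 56.6 and 74.5 in event 1, 4.76, 5.59 and 8.8 in event 2 and 26.9, 18.5 and 25.3 in control, so that the control samples lay between the events without overlap. The difference was 3.05 ± 0.39 (SE; adjusted p = 0.0041). In inflorescence the events overlapped, with 6.24, 6.63 and 4.83 against 11.9, 4.63 and 13. The contrast between tissues was 3.60 (adjusted p = 0.25).

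GRMZM2G161383 had 28.5, 18.9 and 22.5 in event 1 ear, 7.14, 4.47 and 6.4 in event 2 ear and 8.2, 10.6 and 8.45 in control ear. Its difference of 1.8 ± 0.35 (SE; adjusted p = 0.14) had the largest p of the 17 and was no longer called in 13 of 16 alternatives. In inflorescence event 1 was also above event 2, with 118.5, 43.6 and 62.9 against 21.1, 24.3 and 34.8 (1.36, adjusted p = 0.51).

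**Figure D3:**
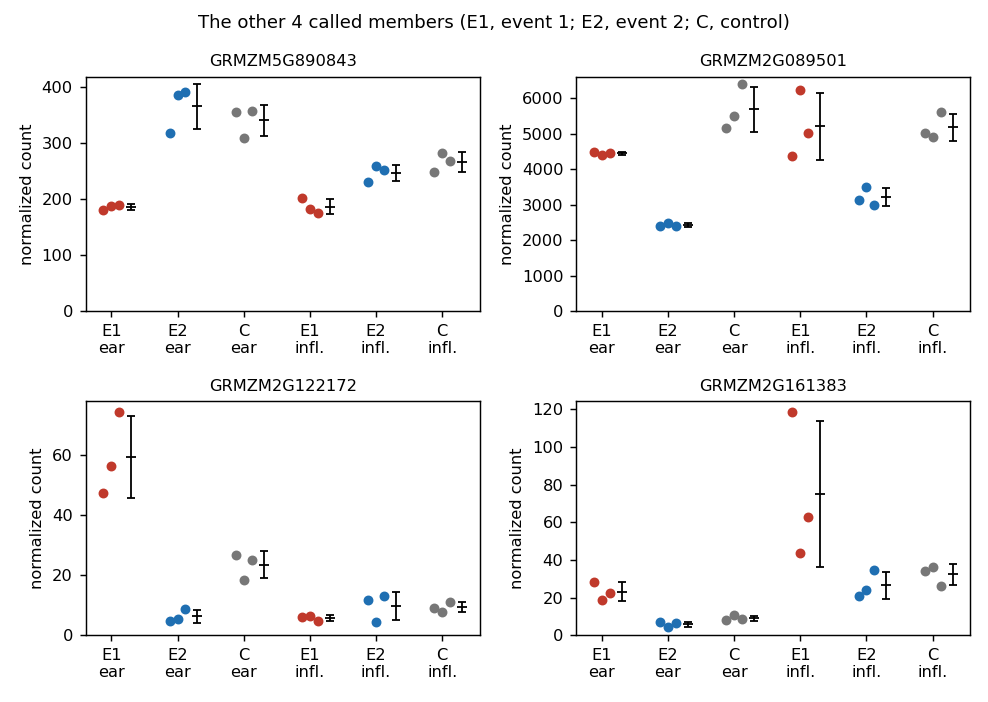
Normalized counts of GRMZM5G890843, GRMZM2G089501, GRMZM2G122172 and GRMZM2G161383 in all 18 samples (points), with the mean and SD of the 3 replicates of a group beside them. GRMZM5G890843 is lower in event 1 than in event 2 and control, GRMZM2G089501 is lower in event 2, at 2393 to 2495 in ear, and GRMZM2G122172 is highest in event 1 ear, at 47.5 to 74.5, with control ear between the events.

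Each event was also set beside control ear. Event 1 ear against control ear had 44 called members (0.115%) and event 2 ear against control ear had 14 (0.0364%). These comparisons share the control samples, so their lists were not compared with each other. Of the 14 members higher in event 2 than in event 1, 12 were called in event 2 against control and 1, GRMZM5G890843, in event 1 against control. The 14 were chosen by the same event ear samples, so these counts follow in part from that choice.

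Positions of called members were read from the gene order of the RefSeq annotation of Zm-B73-REFERENCE-NAM-5.0, in which 16097 members could be placed on a chromosome. Only 3 of the 17 called members could be placed, GRMZM5G890843 on chromosome 3, GRMZM2G089501 on chromosome 7 and GRMZM2G028921 on chromosome 9. Among the 20 placed members nearest to each, 10 on each side, none was called. A raw p under 0.05 was found for 1, 1 and 0 of the 20, against 5.01% of all placed members. By chromosome, the share at a raw p under 0.05 lay between 3.86% on chromosome 5 and 5.57% on chromosome 10.

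Gene lists gave a view below the call threshold. None of the 362 members in 25 lists was called or had an adjusted p under 0.05, and counts at a raw p under 0.05 are therefore given as a description beside the background of 3.07% of all members higher and 1.8% lower in event 1. That background moved with the replicates: it was 5.18% higher and 4.84% lower without event 2 ear replicate 1, 1.48% and 1.15% without replicate 2, and 3.97% and 1.92% without replicate 3. For the other alternatives and for fits without an event 1 replicate the background is not given. List counts under those settings therefore have no share of all members beside them. In brackets after the values of a list gene stand its log2 difference between events and its adjusted p. Counts of list members that changed by more than 1.5 times when a replicate was left out are given with that replicate. With quantile normalization the counts below fell to 6 for cellulose synthesis, 1 for lignin, 1 for sucrose and 0 for both chaperone lists. Of the medians below, those for lignin, expansins, WRKY factors, water stress, the clock and pollen moved by more than 1.5 times without event 2 ear replicate 1, to 0.55, 0.27, 0.23, 0.05, -0.38 and 0.55. Without event 2 ear replicate 2 those for WRKY factors, water stress, the clock, flavonoids, auxin response and the cell cycle did so, to 0.02, -0.05, -0.01, 0.25, -0.02 and -0.11.

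Cellulose synthesis genes are described first. This list was not among the planned lists, and its pattern was written after ear values had been seen. Its counts are therefore a description of these same data. Of 20 members in the cellulose synthesis list, the catalytic subunits of cellulose synthase and the COBRA-like brittle stalk genes, 11 had a raw p under 0.05 and all 11 were higher in event 1. The list's median difference was 0.41 against 0.04 over all members. The 20 members stand for 18 genes, since CesA-9 and cesa11 each had more than 1 identifier. Both identifiers of CesA-9 were higher, GRMZM2G150404 with 1345.5, 1598 and 1353 in event 1 ear against 1156, 950.5 and 1013 in event 2 ear (0.46, adjusted p = 0.69) and GRMZM2G018241 with 2181, 2515 and 1986 against 1957, 1526 and 1609.7 (0.39, adjusted p = 0.81). Bk2L3 (GRMZM5G826714), a relative of brittle stalk 2, had 5038, 6314 and 5402.5 against 4869, 2337 and 4282 (0.61, adjusted p = 0.8). The events did not overlap in these transcripts, but in each of them the nearest event 2 sample was replicate 1. The count of 11 was 13 without event 2 ear replicate 1, 3 without event 2 ear replicate 2, 6 without event 2 ear replicate 3 and 1 without event 1 ear replicate 2.

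Lignin and phenylpropanoid genes, which make the phenolic polymer of secondary walls, had 14 members with a median of 0.35, and 4 had a raw p under 0.05, all higher in event 1. The methyltransferase transcripts CCoAOMT-2 (GRMZM2G099363) had 6376, 8847 and 7586.5 against 5768, 4286 and 4375 (0.66, adjusted p = 0.89), and ccoaomt1 (GRMZM2G127948) had 15342, 18671 and 18328 against 14066, 11495 and 11018 (0.52, adjusted p = 0.89). Laccase-13 (GRMZM5G814718), of the oxidases that couple lignin units, had 135.5, 217 and 205 against 158, 50.3 and 57.6, so the events overlapped through event 2 replicate 1 (1.23, adjusted p = 0.83). Control ear had 38.6, 35.6 and 26.4. The count of 4 was 0 without event 2 ear replicate 2 or replicate 3 and 1 without event 1 ear replicate 2 or replicate 3.

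Expansins loosen growing walls and xyloglucan enzymes cut and rejoin their glucans. Of 14 members, 3 had a raw p under 0.05, all higher in event 1, and the median was 0.14. The expansin expB6 (GRMZM2G176595) had 570.5, 1080.2 and 864 in event 1 ear against 734, 255 and 340.6 in event 2 ear (1.02, adjusted p = 0.71). In xth1 (GRMZM2G119783) the events did not overlap, with 116.5, 171 and 111 against 92.8, 59.3 and 79.2 (0.77, adjusted p = 0.85). The values of expB3 (GRMZM2G474194) were 3286, 4975.5 and 4607 against 4029, 2608 and 2723 (0.47, adjusted p = 0.92). For expB6 and expB3, event 2 replicate 1 lay among the event 1 samples. The count of 3 was 1 without event 2 ear replicate 2 or event 1 ear replicate 2, and 2 without event 1 ear replicate 3 or event 2 ear replicate 3.

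Defence genes had 22 members with a median of 0.42, of which 6 had a raw p under 0.05, all higher in event 1. The proteinase inhibitor gene wip1 (GRMZM2G156632), known to respond to wounding, had 41.6, 18.9 and 16.9 in event 1 ear and 41.6, 0 and 0.8 in event 2 ear (2.54, adjusted p = 0.8). The chitinase gene chn1 (GRMZM2G453805), whose product cuts fungal cell walls, had 144, 316 and 327.5 against 290.2, 8.95 and 26.4 (2.52, adjusted p = 0.81). Event 2 replicate 1 was within the range of event 1 for chn1 and level with its highest sample for wip1, and in both event 2 replicates 2 and 3 were within or below the range of control, which was 1.06 to 3.96 for wip1 and 2.64 to 37.0 for chn1. The difference of wip1 was 0.95 in edgeR and 0.87 in DESeq2, and that of chn1 was 1.28 in both. The cysteine proteinase inhibitor gene cystatin3 (GRMZM2G440968) did not overlap, with 1532, 1652 and 1568.5 against 1342, 903.5 and 1107.5 (0.52, adjusted p = 0.76). The count of 6 was 9 without event 2 ear replicate 1 and 1 without event 2 ear replicate 2. It was 2 without event 1 ear replicate 2, 3 without event 1 ear replicate 3 and 4 without event 1 ear replicate 1 or event 2 ear replicate 3.

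Of 36 members in the jasmonate list, lipoxygenases and other synthesis enzymes and the TIFY family that holds the repressors of jasmonate response, 4 had a raw p under 0.05, all higher in event 1, with a median of 0.25. A TIFY transcript (GRMZM5G838098) had 28.5, 66.7 and 73.1 against 23.8, 5.59 and 9.6 (2.14, adjusted p = 0.58), and control overlapped both. A lipoxygenase transcript (GRMZM2G156861) had 36168, 41181 and 31621 against 23523, 20251 and 19814.5 (0.77, adjusted p = 0.88). A further TIFY transcript (GRMZM2G117513) had 626, 609 and 599 against 564, 430.5 and 461 (0.34, adjusted p = 0.88). The count of 4 was 8 without event 2 ear replicate 1, 1 without event 2 ear replicate 2 and 2 without event 2 ear replicate 3.

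Among 16 members of the WRKY factors, regulators that often act in defence, 2 had a raw p under 0.05, and the list's median was 0.03. WRKY104 (GRMZM2G169149) had 9.51, 31.5 and 16.9 against 8.33, 1.12 and 3.2 (2.07, adjusted p = 0.51), and WRKY53 (GRMZM2G125653) had 165, 378 and 252 against 160.6, 10.1 and 98.4 (2.16, adjusted p = 0.66). The events did not overlap, and event 2 replicate 1 lay next to the lowest event 1 sample in both. The count was 4 without event 2 ear replicate 1 or without event 2 ear replicate 3.

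**Figure D4:**
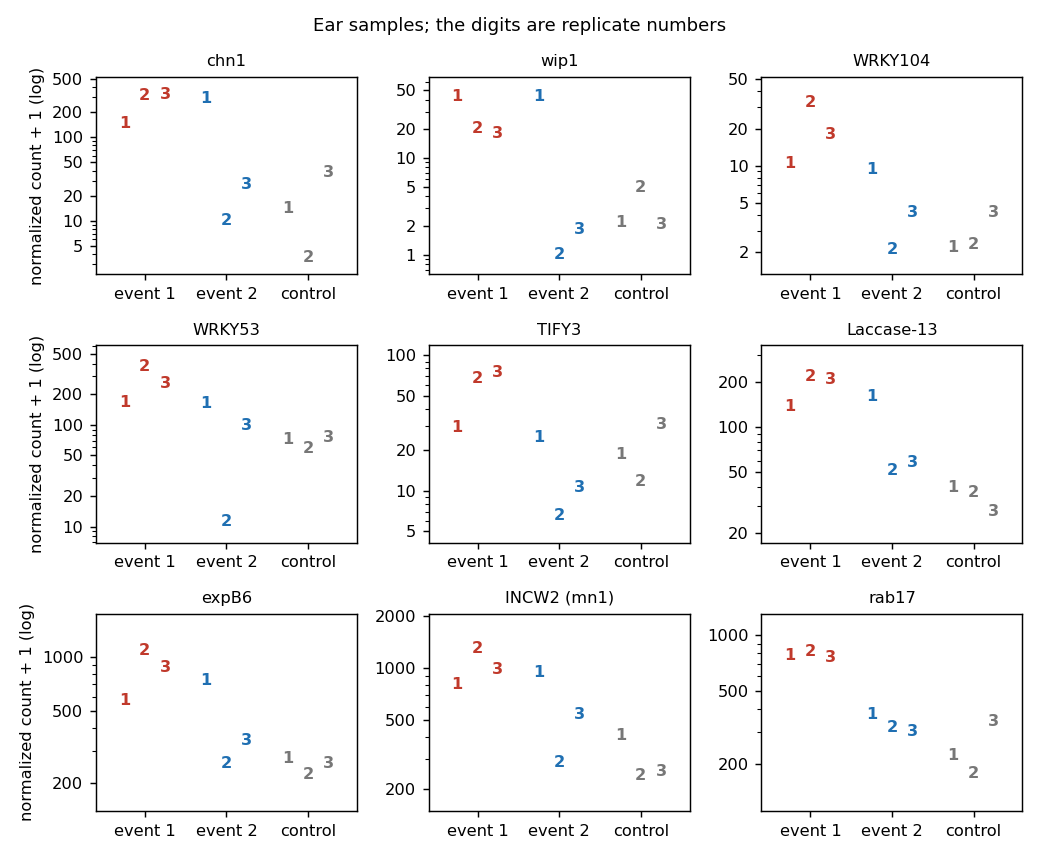
Normalized count plus 1, on log axes, of 9 list genes in the 9 ear samples, drawn as replicate numbers. For chn1, wip1, Laccase-13, expB6 and INCW2 event 2 replicate 1 lies among or above the event 1 samples, whereas for rab17 all 3 event 2 samples, at 299 to 369, lie below the event 1 samples.

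Calls over all members also turned on event 2 ear replicate 1. Of the 21 members called higher in event 1 when this replicate was left out, 19 were not called with all replicates. The 19 include wip1 and expB6, which are described above. By this choice event 2 replicate 1 lies above event 2 replicates 2 and 3 in the 19, which is a description. Event 1 samples lay above all control samples in all 19, and event 2 replicate 1 did so in 18. Where event 2 replicates 2 and 3 lay near control, these counts follow in part from the choice. The share of all members with this pattern is not given here. Among them were LOC100282076 (GRMZM2G137535), with 53.5, 167 and 188 in event 1, 152, 4.47 and 1.6 in event 2 and 2.34, 2.64 and 6.33 in control, and znod1 (GRMZM2G052562), with 2355, 4838 and 3107 in event 1, 2759.7, 459.6 and 881 in event 2 and 587, 340.6 and 289 in control, both named after their values were seen.

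Sugar supply genes included 2 invertases. INCW2 (GRMZM2G119689), the cell wall invertase of the mn1 locus that splits sucrose for growing kernels, had 809, 1297 and 991 in event 1 ear against 947, 283 and 541 in event 2 ear (0.95, adjusted p = 0.76). An invertase transcript (GRMZM2G394450) had 47.5, 59.2 and 36.5 against 40.4, 22.4 and 23.2 (0.74, adjusted p = 0.93). Both overlapped between the events through event 2 replicate 1, and they were the 2 of 11 sucrose cleavage and sugar transport members at a raw p under 0.05. The count was 0 without event 2 ear replicate 2 or event 1 ear replicate 2, 1 without event 1 ear replicate 1 or event 2 ear replicate 3, and 3 without event 2 ear replicate 1 or event 1 ear replicate 3.

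The water stress and ABA list had 32 members, of which 1 was higher and 1 lower in event 1 at a raw p under 0.05, with a median of -0.02. The dehydrin gene rab17 (GRMZM2G079440), whose protein accumulates in drying tissue, had 780, 821 and 759 in event 1 ear, 369, 314 and 299 in event 2 ear and 221, 177 and 339 in control ear. The events did not overlap (1.27, adjusted p = 0.81) and the replicates of each event lay close together. The phosphatase gene PP2C12 (GRMZM5G818101) was lower in event 1, with 213, 195 and 201 against 318, 230.3 and 239.9 (-0.36, adjusted p = 0.94). The count of 2 was 3 without event 1 ear replicate 1 or event 2 ear replicate 3 and 1 without event 1 ear replicate 2 or replicate 3.

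Photosynthesis transcripts mark the green husk and leaf tissue that an ear sample could hold. Of 19 members 3 had a raw p under 0.05, all higher in event 1, with a median of 0.38, and the events did not overlap in 12, with event 1 higher, against 9.65% of all members. A Rubisco small subunit transcript, rbcs1 (GRMZM2G098520), had 2680.3, 2775 and 2497 against 1869, 1195 and 1355 (0.87, adjusted p = 0.63). A further rbcS transcript (GRMZM2G113033) had 2039.6, 2016 and 1946.5 against 1451, 888 and 1097 (0.83, adjusted p = 0.79), and the light-harvesting gene lhcb5 (GRMZM2G149428) had 4539, 4097 and 4510.0 against 3559, 3327 and 3203 (0.38, adjusted p = 0.94). The summed normalized count of the whole list of 20 identifiers was between 67233 and 72274 in event 1 ear, between 50262 and 58723 in event 2 ear and between 50405 and 59843 in control ear. The count of 3 was 1 without event 2 ear replicate 2, 2 when event 1 ear replicate 2, event 1 ear replicate 3, event 2 ear replicate 1 or event 2 ear replicate 3 was left out, and 4 without event 1 ear replicate 1. It was 12 in the fit to the 6 ear samples, 11 in the fit to the 9 ear samples and 5 in DESeq2. The share of all members under these 3 fits is not given. The part of green tissue in the differences above was not tested. In bulk samples fewer cells of a type and less RNA per cell cannot be told apart.

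Of the large chaperones, 2 of 11 members had a raw p under 0.05, both for the endoplasmic reticulum chaperone BiP: bip2 (GRMZM2G415007), with 3969, 4593 and 3976 against 3508, 3309.9 and 2909.9 (0.37, adjusted p = 0.82), and bip1 (GRMZM2G114793), with 6008, 7023 and 6226 against 5526.5, 5154 and 4489 (0.35, adjusted p = 0.9). These sequences are alike and their reads could be shared. The count was 1 without event 1 ear replicate 2, and 0 with quantile normalization, where the differences of bip2 and bip1 were 0.23 and 0.19. The count was 5 in the fits to the 6 or the 9 ear samples, for which the share of all members is not given. The small heat-shock gene hsp22 (GRMZM2G007729) had 7723, 6523 and 7075 in event 1 ear and 4155, 5606 and 4776 in event 2 ear (0.56, adjusted p = 0.8), and was the only one of 5 members of its list at that level. It was above it without event 2 ear replicate 1 and with quantile normalization.

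Auxin response genes were split, with 2 of 40 members higher and 2 lower in event 1 at a raw p under 0.05 and a median of -0.09. AUX36 (GRMZM2G359924), of the Aux/IAA repressors, had 0, 11.3 and 5.62 against 28.6, 11.2 and 20.8 (-2.20, adjusted p = 0.7). The response factor ARF4 (GRMZM2G034840) had 173.5, 157 and 183 against 195, 329.9 and 205.5 (-0.47, adjusted p = 0.91), and ARF17 (GRMZM2G159399) had 1199, 1661 and 1290.2 against 1249, 976 and 984 (0.37, adjusted p = 0.89). The count of 4 was 1 without event 1 ear replicate 2 or event 2 ear replicate 2 and 7 without event 2 ear replicate 1.

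In the cell cycle list of 18 members, the DNA polymerase clamp gene pcna1 (GRMZM2G030523) had a raw p under 0.05, with 1572.5, 1746 and 1569.9 against 1300.1, 972 and 1088 (0.55, adjusted p = 0.85), and the cyclin gene cyc3 (GRMZM2G073671) had one too, with 291, 232 and 287 against 414, 313 and 328 (-0.38, adjusted p = 0.91). The list's median was -0.05, and the count of 2 was 1 without event 1 ear replicate 2, where neither of these transcripts had a raw p under 0.05, 1 without event 2 ear replicate 3, and 5 with quantile normalization. Of 8 flavonoid and anthocyanin members 1 had a raw p under 0.05, the glutathione transferase gene bz2 (GRMZM2G016241), with 22.6, 1.26 and 5.62 against 15.5, 32.4 and 11.2 (-1.42, adjusted p = 0.87), while the median of the list, 0.44, had the opposite sign. That count was 0 without event 1 ear replicate 2, event 1 ear replicate 3 or event 2 ear replicate 2.

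With limma, no member had a raw p under 0.05 in 10 lists. These were the class IV HD-Zip genes of the epidermis (7 members), the circadian clock (3), histones (9), starch synthesis (10), gibberellin (5), aquaporins (24), organ size regulators (13), pollen (4), inflorescence meristem (10) and floral organ and pistil (11). When single replicates were left out, at most 2 members of any of these lists passed that level. The medians lay between -0.19 for the clock and 0.94 for pollen. Pollen grains can lie on silks at this stage, and the pollen expansin transcript EXPB10 (GRMZM2G127106) was at 85.6, 27.7 and 29.5 in event 1 ear and 7.14, 17.9 and 46.4 in event 2 ear, with 39.1 to 48.0 in control ear. Of the kernel endosperm markers 4 of 11 were members, and these had reads in every ear library. Their normalized counts there were 105.6 to 319.8 for zp27, 10.7 to 54.8 for sh2, 238.9 to 1296.8 for INCW2 and 1349.7 to 1975.9 for bt2. In contrast betl2, a gene of the basal transfer layer, had no read in any ear library. Maize HD-Zip II genes themselves were not analysed here.

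**Figure D5:**
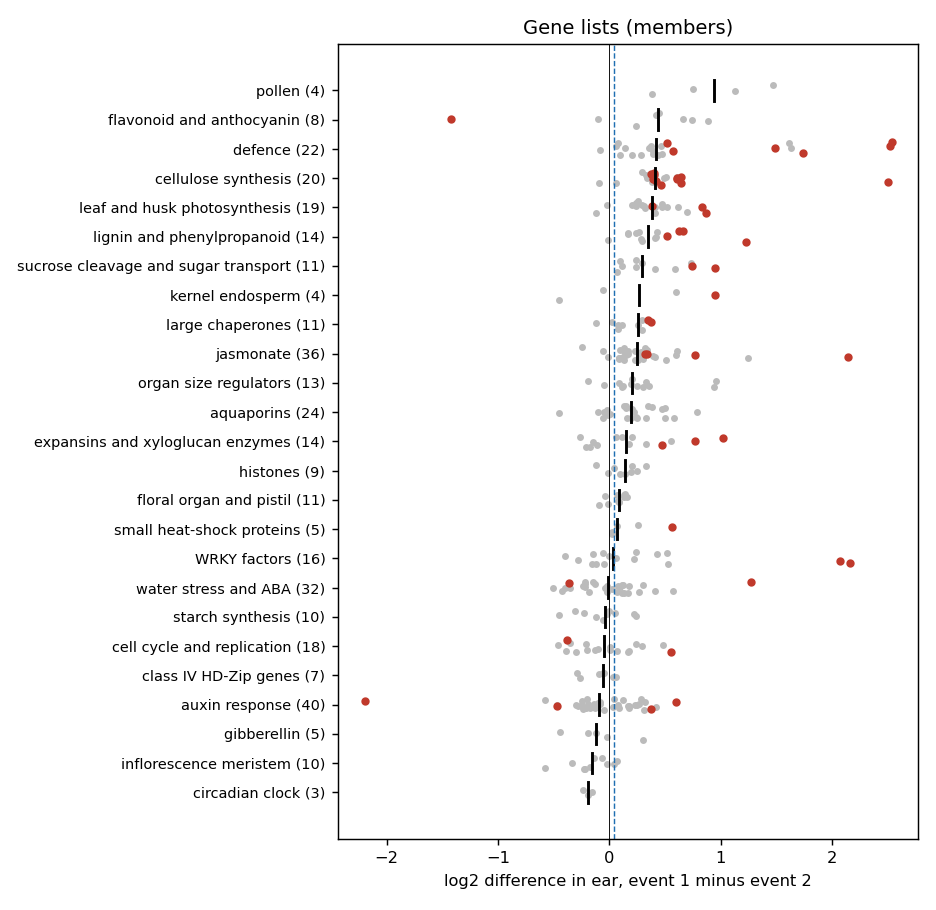
The log2 difference in ear, event 1 minus event 2, of the members of 25 gene lists (number of members in brackets). Red points had a raw p under 0.05 and grey points had not, black bars are list medians, and the dashed line is the median over all members, 0.04. Points at a raw p under 0.05 lie on the right for cellulose synthesis, with 11 of 20, and for defence, with 6 of 22.

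Members were also grouped by the difference between control ear and control inflorescence, which uses no event sample. In the 344 members higher in control ear by more than 4 on the log2 scale, the median difference between events was 0.48. In the 2239 members higher by 2 to 4 the median was 0.28, in the 7728 members within 0.3 it was 0.05, and in the 1525 members lower in control ear by more than 2 it was -0.31. The shares higher in event 1 at a raw p under 0.05 were 11.3%, 7.59%, 2.86% and 0.262% in the same order, against 3.07% of all members. Without event 2 ear replicate 2 the medians were 0.31, 0.19, -0.01 and 0.08, so that the negative end rested on that replicate. Without event 2 ear replicate 1 they were 0.64, 0.42, 0.07 and -0.68.

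In single samples the replicates of event 2 differed and the events were not separated. For the 1525 members that were lower in control ear, the median log2 difference from the control ear mean was 1.20 in event 2 replicate 2, 0.21 in replicate 3 and -0.38 in replicate 1, and between -0.03 and 0.04 in the event 1 samples. For the 2583 members higher in control ear by more than 2, it was between 0.25 and 0.47 in event 1 and 0.34, -0.16 and -0.01 in event 2. Each control ear replicate against the other control replicates gave between -0.12 and 0.16 for the former and between -0.03 and 0.07 for the latter. Sampling stage, tissue composition and event cannot be told apart in these values.

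The study listed 9 transcripts as changed against control in both events, GRMZM2G168222 and GRMZM2G059129 in ear and the others in ear inflorescence. Small differences between the events follow in part from that choice. Of the 9, 8 were members and none was called between the events in ear. GRMZM2G168222 had 756, 854 and 798 in event 1 ear, 748, 634 and 523 in event 2 ear and 411, 299.6 and 409.6 in control ear (0.35 between events, adjusted p = 0.93), and the events did not overlap. GRMZM2G059129 (LOC100384038) had 309, 335 and 271 against 251, 206 and 223, with 128, 141 and 141.5 in control ear (0.43, adjusted p = 0.92). In both transcripts each event sample was above each control ear sample, and event 1 was the higher event. The position above control follows in part from the study's choice, which used these same ear samples.

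GRMZM5G845499 had 83.2, 74.3 and 130.7 against 91.6, 81.6 and 109 in the events, a difference of 0.00 ± 0.21 (SE), with 57.4, 54.1 and 38.0 in control ear. GRMZM2G008611 differed by -0.06 ± 0.13, GRMZM2G051135 by -0.25 ± 0.29, GRMZM2G097135 by 0.69 ± 0.40 and GRMZM5G841343 by 0.13 ± 0.21 (SE), and the events overlapped in these. The difference of GRMZM2G097135 was 0.25 without event 1 ear replicate 1 and 1.20 without event 1 ear replicate 3. GRMZM5G823696 was not a member, with no read in event 1 ear and normalized counts of 0, 1.12 and 0.8 in event 2 ear, and the difference was not detectable at this depth.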

How the data were processed

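Total RNA of 3 biological replicates of each tissue and genotype was sequenced in reads of 50 bases (TruSeq, HiSeq2000). The authors processed reads with CASAVA 1.8.2 and mapped them to the B73 transcriptome with Bowtie 0.12.8, allowing 2 high-quality mismatches in a seed of 28 bases. Reads on more than 10 transcripts were ignored and others were counted on each. The deposited values are read counts the authors normalized with DESeq over all samples, a normalized signal. No per-sample column was left unused. The authors tested in SAS Proc GLIMMIX.

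Reads were recovered by dividing each library by its scale factor, and 557755 of 557755 low values (up to 50 reads) were whole within 0.05 reads. The tests used limma 3.58.1 (R 4.3.3) and log2(normalized count + 1), with 6 group means, all 18 samples and 76612 transcripts, moderated variances with a trend (prior degrees of freedom 6.85), calls where the raw p did not exceed 0.0001, and Benjamini-Hochberg adjustment over all transcripts. edgeR 4.0.16 and DESeq2 1.42.0 ran on the recovered reads. The fit was tested on simulated data. Other alternatives were pseudocounts of 0.1 and 10, a filter at a mean of 10, fits to 6 or 9 ear samples, quantile normalization, no moderation, a replicate block and leaving out each replicate. Counts of list members without event 2 ear replicate 1 or 2 were added after seeing the data.

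Names are those of RefSeq (assembly Zm-B73-REFERENCE-NAM-5.0), matched by synonym: 16100 members matched 1 gene and 473 several. Lists were matched by symbol or synonym. The lists for cellulose synthesis, jasmonate, WRKY factors, aquaporins and organ size regulators were not among the planned lists. Named transcripts are the 12 with the smallest p in each direction among called members without overlap, up to 3 members of each list with the smallest p (here only those with a raw p under 0.05), and 9 transcripts the study names; others are marked as chosen after their values were seen. Members and lists were chosen with earlier results of these data known, and the list patterns were written after the annotation and ear values had been seen. Of the members, 606 (1.58%) had the same reads in every library as another. The 95% intervals and floors cover counting error only. Tables and plots were made in Python 3.11.15 using matplotlib 3.10.9, scipy 1.17.1, pandas 2.3.3 and numpy 2.4.6.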

Additional observations from a re-analysis of the deposited data

Results flagged for a closer look

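GRMZM2G122172 was called at the raw threshold in a test of whether its event contrast differed between tissues, and it did not pass the adjustment. The log2 difference between events was 3.05 in ear and -0.55 in inflorescence, and the contrast between them was 3.60 (limma adjusted p = 0.25). Event 1 was above event 2 in 3 of 3 ear samples. Its cause was not tested.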

How the results depend on the processing

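The 17 members called in ear kept their direction under all 16 alternatives. The count was 2 when only the 6 ear samples were fitted, 0 of them higher in event 2, and only 1 of the 17 was kept. Members higher in event 1 numbered 11 with a pseudocount of 10, 7 in the fit to the 9 ear samples (with 8 higher in event 2) and 7 in DESeq2, which called 26 in all. The fit to the 9 ear samples kept only 6 of the 17. edgeR called 18 and kept 16 of the 17. Leaving out 1 replicate gave 12 to 37 calls in ear, with 2 to 21 higher in event 1 and 9 to 16 higher in event 2, and 11 to 23 in inflorescence. Replicate numbers share no stated pairing, and deviations of same-numbered samples correlated at -0.15, -0.03 and 0.05; with the replicate block 15 members were called in ear, all among the 17. Only 1 of the 3 event 1 samples and 0 of the 3 event 2 samples correlated best with its own number. Without event 1 ear replicate 1, GRMZM5G841343 changed sign to -0.06, in a range to 0.25 over the left-out replicates. GRMZM5G845499, at 0.00, changed to 0.01 in edgeR, 0.02 in DESeq2, and 0.08, 0.16 and 0.11 without event 1 ear replicate 1 or 2 or event 2 ear replicate 3, in a range from -0.24 to 0.16 over the left-out replicates. The cause was not tested. Of 926 values of 58 named transcripts, 848 kept their direction and side of the threshold, 68 lost the call, 4 gained one and 6 reversed. Only the 17 called members could lose a call, so the 68 fell among their values alone. Over the 16 alternatives the lost calls ranged from 0 for GRMZM2G089501 to 13 for GRMZM2G161383. Quantile normalization moved the median of all members from 0.04 to 0.00, and few reads limit transcripts near a mean of 10.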

Other observations

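Among the lists with no member at a raw p under 0.05, the organ size regulators (13 members) had a median difference of 0.20 and the aquaporins, the water channels of growing cells (24 members), a median of 0.19. The inflorescence meristem list (10 members), which holds the homeobox gene kn1, had a median of -0.15. Over all members the median was 0.04. In the same order the medians of the 3 lists were 0.17, 0.20 and -0.05 without event 2 ear replicate 2 and 0.39, 0.33 and -0.18 without event 2 ear replicate 1.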
